A study of Mus musculus with 12 samples.

Results

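The miR-15 and miR-16 clusters are 4 miRNA precursors, mmu-mir-15a, mmu-mir-16-1, mmu-mir-15b and mmu-mir-16-2, which were taken by name from the 589 precursors measured in the mouse cerebral cortex. All 4 were above 0 in each of the 12 small RNA libraries, as were 190 of the 589 precursors. The libraries came from female C57BL/6J mice, 7 weeks old at the start, that were wild type (WT) or lacked the Toll-like receptor 4 gene in the whole body (TLR4-KO), and that then drank water or water with 10% (v/v) ethanol (EtOH) for 5 months. Mice on water formed the groups WT and TLR4-KO, and mice on ethanol the groups WT + EtOH and TLR4-KO + EtOH. Each group had 3 libraries, and each library pooled the RNA of 3 mice, which makes 9 mice per group. Differences between libraries of a group are therefore differences between pools, and the tests measure that spread. Small RNA libraries hold no Tlr4 mRNA, so the knockout could not be checked in these data.

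A miRNA is cut from a hairpin precursor by Drosha and Dicer, and the mature strand guides Argonaute to mRNAs that pair with its seed, the bases 2 to 8 from the 5′ end. miR-15 and miR-16 share their seed and are known for repressing cell cycle genes such as the D-type cyclins and the survival gene Bcl2. miR-16 is found in nearly every tissue, brain and red blood cells included.

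The mature 5′ strands are shown because they define what a sequencing read could tell apart. In the RefSeq sequences (GRCm38.p6), printed 5′ to 3′ with the seed in capitals, the 3 different mature 5p strands of the clusters read as follows.
mmu-miR-15a-5p: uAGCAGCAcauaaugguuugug
mmu-miR-15b-5p: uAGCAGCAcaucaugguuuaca
mmu-miR-16-5p: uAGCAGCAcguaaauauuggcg
All 3 are 22 bases long. miR-15a-5p and miR-15b-5p had the same base at 18 of 22 positions, with the first difference at base 12. miR-16-5p equalled miR-15a-5p at 16 and miR-15b-5p at 14 positions, with the first difference at base 10 in both pairs. mmu-mir-16-1 and mmu-mir-16-2 give the identical mature 5p strand, so a read of miR-16-5p fits both precursors. Their 3p strands, on which the hairpins can be told apart, shared 12 of 22 positions and are shown with bases 2 to 8 in capitals.
mmu-miR-16-1-3p: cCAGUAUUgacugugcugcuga
mmu-miR-16-2-3p: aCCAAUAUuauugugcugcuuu

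In the GENCODE M21 annotation of GRCm38, mmu-mir-15a (chr14:61632027-61632110) and mmu-mir-16-1 (chr14:61631880-61631972) lie on the minus strand of chromosome 14, with 54 bases between them. Both lie in an intron of the long non-coding RNA gene Dleu2 in all 8 of its transcripts that span them, and an exon of 1 further Dleu2 transcript overlaps mmu-mir-16-1. mmu-mir-15b (chr3:69009772-69009835) and mmu-mir-16-2 (chr3:69009902-69009996) lie on the plus strand of chromosome 3, with 66 bases between them. They sit in an intron of Smc4, which encodes a condensin subunit, in all 5 spanning transcripts. Each cluster thus pairs 1 miR-15 with 1 miR-16 hairpin inside a single host gene.

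The deposited values are normalised and have no unit. Each library reached the same highest value of 134.8, and the whole table held only 387 distinct values, so a value gives in effect the place of a precursor within its library. Differences below are steps on this scale, not folds, and the read depth behind each value is unknown. Between 216 and 270 precursors were above 0 per library. Of the 589 precursors, 265 were at 0 in all libraries, and shares of all precursors given below include them. All 13 neuronal precursors were above 0 in at least 1 library, with mmu-mir-137 and mmu-mir-153 at 0 in some, while the muscle miRNA precursors mmu-mir-133a-1 and mmu-mir-133a-2 and the liver mmu-mir-122 were listed at 0 in every library.

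On the deposited scale, the miR-16 precursors were high and the miR-15 precursors were low. Over the 12 libraries, mmu-mir-16-2 had a mean value of 76.1 ± 3.63 (SD), and mmu-mir-16-1 75.8 ± 3.57, which placed them 43rd and 47th of 589 precursors. mmu-mir-15a followed at 34.7 ± 6.39 (place 140) and mmu-mir-15b at 31.1 ± 4.53 (place 153). The median over the 190 precursors above 0 in all libraries was 48.7, so the miR-16 pair lay above it and the miR-15 pair below it. As the mature 5p strands are of equal length, no correction for length applies to this order. Each miR-16 value may, however, hold reads of both clusters, since a read of miR-16-5p fits both precursors. As the way reads were assigned to precursors is not known, this order need not be that of abundance in the cortex.

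Within each cluster the gap was large against the spread, though the miR-16 value may hold reads of the other cluster. mmu-mir-16-1 exceeded its neighbour mmu-mir-15a in 12 of 12 libraries, by 41.1 ± 6.05 on the deposited scale. mmu-mir-16-2 exceeded mmu-mir-15b in 12 of 12 libraries, by 45.0 ± 6.38. The smallest gap was that of TLR4-KO + EtOH replicate 1, where mmu-mir-16-1 stood 24.9 above mmu-mir-15a. mmu-mir-15a and mmu-mir-15b, in contrast, were not separated beyond their spread, with a mean difference of 3.56 ± 8.04 and mmu-mir-15a the higher in 9 of 12 libraries. By group, mmu-mir-15a was above mmu-mir-15b by 9.47 in WT and 8.28 in TLR4-KO + EtOH (3 of 3 libraries each), and the mean difference was -2.85 in WT + EtOH (above in 1 of 3), whereas TLR4-KO had -0.663 (above in 2 of 3).

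mmu-mir-16-1 and mmu-mir-16-2 were nearly one measurement. Their values were equal in 7 of 12 libraries and never more than 0.980 apart. How the authors divided reads between these copies is not given in the sources used here, and the pair is counted below as 2 precursors that share a mature strand, not as independent evidence.

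mmu-mir-16-1, the miR-16 hairpin of the Dleu2 cluster, was at 79.9, 80.9 and 79.9 in the WT libraries and at 73.3, 74.0 and 77.0 after ethanol (WT + EtOH). The TLR4-KO libraries had 68.7, 75.6 and 75.8, and those with ethanol (TLR4-KO + EtOH) 72.1, 74.5 and 78.0. The lowest WT library was above the highest of the 9 other libraries. The WT mean was 80.2 ± 0.598 (SD, n = 3). WT + EtOH had a mean of 74.8 ± 1.99, the TLR4-KO mice on water 73.4 ± 4.04 and those on ethanol 74.8 ± 2.94, and these 3 did not differ beyond their spread. In ranks, mmu-mir-16-1 held places 35 to 37 in the WT libraries and places 40 to 52 in the others.

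mmu-mir-16-2, the miR-16 hairpin of the Smc4 cluster, showed the same picture, with 80.6, 80.9 and 80.6 in the WT libraries against 73.3, 74.0 and 77.0 after ethanol. The values were 69.7, 76.0 and 75.8 in TLR4-KO mice on water and 72.1, 74.5 and 78.8 in those on ethanol. The WT libraries again stood above all others, and they differed from each other by less than those of any other group, with an SD of 0.141. Of the 190 precursors above 0 everywhere, 21 (11.1%) had all WT libraries above the other 9, and these 2 were among them.

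mmu-mir-15a, the miR-15 hairpin of the Dleu2 cluster, was at 38.6, 38.0 and 41.8 in WT (mean 39.5 ± 2.04, SD, n = 3) and at 25.4, 29.5 and 33.4 in WT + EtOH (29.4 ± 3.98). TLR4-KO mice on water had 27.3, 29.6 and 37.9 (31.6 ± 5.58), and those on ethanol 47.3, 35.3 and 31.9 (38.2 ± 8.07). WT was above all libraries of WT + EtOH and TLR4-KO, but TLR4-KO + EtOH overlapped with every other group and held the highest value of all in replicate 1.

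mmu-mir-15b, the miR-15 hairpin of the Smc4 cluster, was at 32.1, 32.2 and 25.8 in WT and at 36.3, 36.5 and 24.0 in WT + EtOH. TLR4-KO mice on water had 26.3, 33.8 and 36.5, and those on ethanol 33.4, 29.9 and 26.3. All 4 groups overlapped. The means lay between 29.9 ± 3.51 in TLR4-KO + EtOH and 32.3 ± 7.14 in WT + EtOH, closer to each other than the libraries of any one group.

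**Figure D1:**
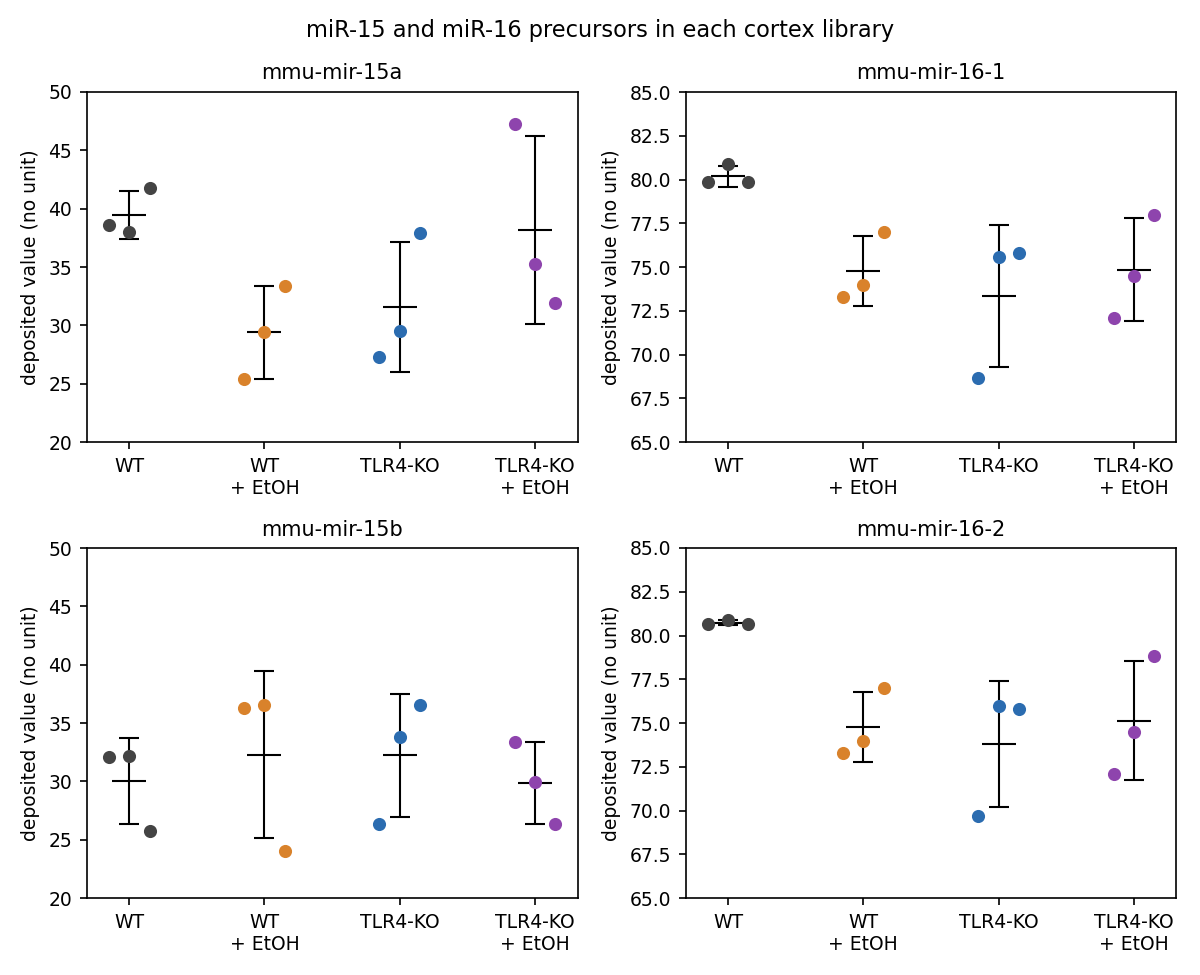
Deposited values (no unit) of the 4 precursors in the 12 libraries by group. Points are libraries (replicates 1 to 3 from left to right), lines are the mean and bars the SD, and the y axes do not start at 0. The WT libraries of mmu-mir-16-1 (79.9 to 80.9) and mmu-mir-16-2 (80.6 to 80.9) lie above all others, while the groups of mmu-mir-15b overlap.

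The SD within groups was 2.71 for mmu-mir-16-1 and 2.67 for mmu-mir-16-2, below the median of 3.63 over the 190 precursors, and 5.39 for mmu-mir-15a and 5.12 for mmu-mir-15b, above it. Spread fell with level in the table as a whole, as the 51 precursors with means between 25 and 40 had a median SD of 4.85 and the 21 between 70 and 85 one of 2.94, these 4 included. In limma's moderated F test of any difference between the 4 groups, adjusted over 589 precursors by Benjamini-Hochberg, mmu-mir-16-2 had an adjusted p = 0.359 and mmu-mir-16-1 an adjusted p = 0.408. For mmu-mir-15a it was an adjusted p = 0.598 and for mmu-mir-15b an adjusted p = 1. None passed the adjusted threshold of 0.05.

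**Figure D2:**
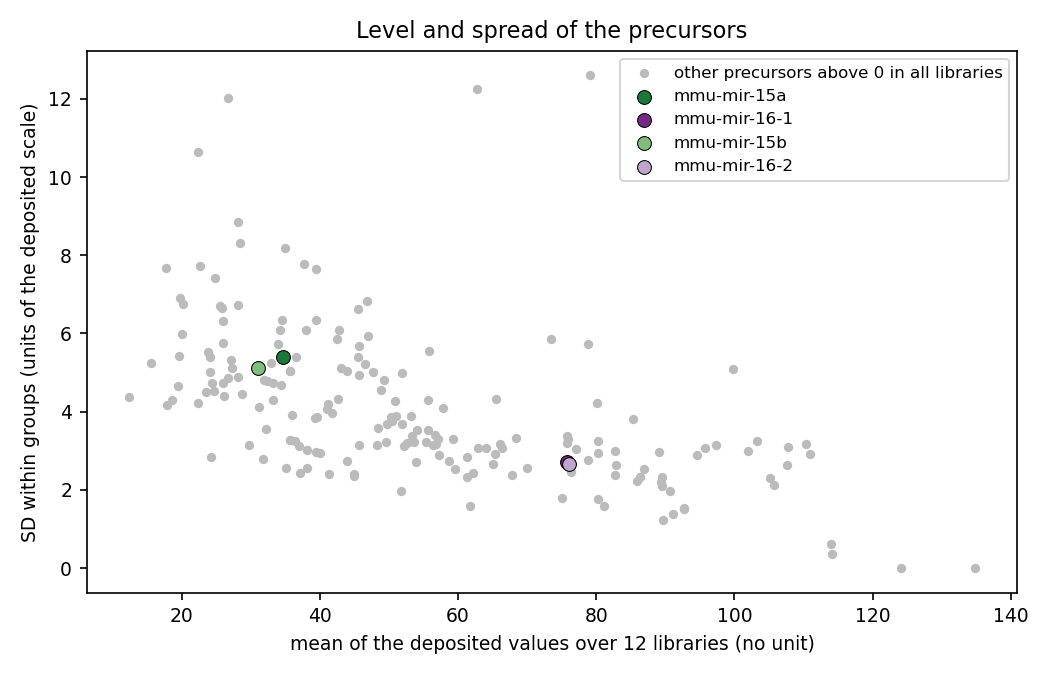
Mean of the deposited values over 12 libraries (x axis, no unit) against the SD within groups (y axis, units of the same scale) for the 190 precursors above 0 in all libraries. The miR-16 pair lies at means of 75.8 and 76.1 with SDs below the median of 3.63, and the miR-15 pair at 34.7 and 31.1 with SDs above it.

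The comparison of WT + EtOH vs WT asks what 5 months of ethanol did in the cortex of wild-type mice. For mmu-mir-15a and both miR-16 precursors the highest of the ethanol libraries lay below the lowest WT library, and for mmu-mir-15b the groups overlapped. The difference was -10.0 for mmu-mir-15a (SE 4.32, 95% interval -19.9 to -0.153), -5.43 for mmu-mir-16-1 (SE 2.17, -10.4 to -0.464) and -5.96 for mmu-mir-16-2 (SE 2.14, -10.9 to -1.06). For mmu-mir-15b it was 2.27 (SE 4.10, -7.13 to 11.7).

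None of the 4 passed the adjusted threshold in limma, where 10 of 589 precursors (1.7%) did. The adjusted p was 0.381 for mmu-mir-15a, 0.318 for mmu-mir-16-1, 0.251 for mmu-mir-16-2 and 1 for mmu-mir-15b. mmu-mir-15a, mmu-mir-16-1 and mmu-mir-16-2 had an unadjusted p under 0.05. So did 12.6% of all precursors, and 61 of the 190 above 0 in all libraries. Groups without overlap and lower with ethanol occurred in 22.1% of the 190 precursors above 0 everywhere. They occurred in 3 of these 4, a count that holds both of the near-identical miR-16 pair. The two-sided exact permutation test gave p = 0.1 for each of the 3, the smallest that 3 against 3 libraries allow, and p = 0.6 for mmu-mir-15b. The median difference of the 4 precursors was -5.70, beside 0.306 over the 190. It lies between the values of the miR-16 pair, which are nearly one measurement. The value for mmu-mir-15b lay between 0.139 and 6.39 when single libraries were left out, the highest without WT + EtOH replicate 3.

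TLR4-KO vs WT compares the genotypes without alcohol, and it uses the same 3 WT libraries as the comparison above. According to the study's methods, the WT mice came from a commercial supplier and the TLR4-KO mice from a laboratory in Osaka. Genotype and source of the mice therefore cannot be told apart in any comparison of genotypes. The 3 precursors mmu-mir-15a, mmu-mir-16-1 and mmu-mir-16-2 were again lower in every TLR4-KO library than in any WT library. The differences were -7.91 for mmu-mir-15a (95% interval -17.8 to 1.99), -6.84 for mmu-mir-16-1 (-11.8 to -1.87) and -6.90 for mmu-mir-16-2 (-11.8 to -2.0). mmu-mir-15b had a difference of 2.22 (-7.17 to 11.6), with overlapping groups, and between 0.0697 (without TLR4-KO replicate 3) and 5.17 (without TLR4-KO replicate 1) when single libraries were left out.

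None of the 4 passed the adjusted threshold here either, where 15 of 589 precursors (2.55%) did. The limma adjusted p was 0.170 for mmu-mir-16-1 and 0.169 for mmu-mir-16-2, the lowest of any comparison for each, and 0.552 for mmu-mir-15a and 1 for mmu-mir-15b. Both miR-16 precursors had an unadjusted p under 0.05, as did 12.2% of all precursors and 56 of the 190 above 0 in all libraries. Groups without overlap and lower in TLR4-KO made up 21.1% of the 190 precursors above 0 everywhere. The two-sided exact permutation test gave p = 0.1 for those 3 and p = 0.5 for mmu-mir-15b. Without TLR4-KO replicate 1, which held the lowest miR-16 values, the difference of mmu-mir-16-1 was -4.51.

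TLR4-KO + EtOH vs TLR4-KO asks what ethanol did in the absence of the receptor. The groups overlapped for all 4 precursors, while of the 190 above 0 everywhere 4.74% were lower and 5.79% higher in TLR4-KO + EtOH without overlap. The difference was 6.59 for mmu-mir-15a (95% interval -3.31 to 16.5), 1.49 for mmu-mir-16-1 (-3.48 to 6.46), 1.31 for mmu-mir-16-2 (-3.59 to 6.22) and -2.35 for mmu-mir-15b (-11.7 to 7.05). None of the 4 was called, beside 2 of 589 precursors (0.34%), with an adjusted p of 1 for each in limma. None had an unadjusted p under 0.05, which 6.96% of all precursors and 20 of the 190 above 0 everywhere had. The value of mmu-mir-15a rested largely on TLR4-KO + EtOH replicate 1 and was 2.03 without it. That of mmu-mir-15b ran from -5.30 without TLR4-KO replicate 1 to -0.199 without TLR4-KO replicate 3. The difference of the miR-16 pair turned negative when TLR4-KO replicate 1 was left out, at -0.847 for mmu-mir-16-1 and -0.762 for mmu-mir-16-2, and without TLR4-KO + EtOH replicate 3, at -0.0686 and -0.532.

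TLR4-KO + EtOH vs WT + EtOH compares the genotypes after alcohol. mmu-mir-16-1 and mmu-mir-16-2 had nearly the same mean in both groups, with differences of 0.0829 (95% interval -4.89 to 5.05) and 0.373 (-4.53 to 5.28), which were -1.11 and -0.815 after centring on miR-181a and miR-181b. mmu-mir-15a had a difference of 8.73 (-1.17 to 18.6), which was 4.18 without TLR4-KO + EtOH replicate 1, and mmu-mir-15b one of -2.40 (-11.8 to 7.0), which ran from -6.52 without WT + EtOH replicate 3 to -0.269 without WT + EtOH replicate 2. None of the 4 was called (adjusted p = 1 for each), beside 3 of 589 precursors (0.509%). None had an unadjusted p under 0.05, beside 4.58% of all precursors and 12 of the 190 above 0 everywhere. All groups overlapped, while 3.68% of the 190 precursors above 0 everywhere were lower and 3.16% higher without overlap. The exact permutation p ran from 0.2 for mmu-mir-15a to 1 for mmu-mir-16-1.

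Whether the response to ethanol differed between the genotypes was tested as the difference of the differences, TLR4-KO + EtOH less TLR4-KO, minus WT + EtOH less WT. It was 16.6 for mmu-mir-15a (95% interval 2.64 to 30.6), 6.92 for mmu-mir-16-1 (-0.107 to 14.0), 7.28 for mmu-mir-16-2 (0.341 to 14.2) and -4.62 for mmu-mir-15b (-17.9 to 8.67). None passed the adjusted threshold in limma, which 7 of 589 precursors (1.19%) did. mmu-mir-15a had an adjusted p = 0.316, mmu-mir-16-1 an adjusted p = 0.394, mmu-mir-16-2 an adjusted p = 0.361 and mmu-mir-15b an adjusted p = 1. For mmu-mir-15a and mmu-mir-16-2 the unadjusted p was under 0.05, as for 12.6% of all precursors and 58 of the 190 above 0 in all libraries. Left-out libraries moved the value of mmu-mir-15a between 12.1 and 19.8, the lowest without TLR4-KO + EtOH replicate 1, and gave 4.59 for mmu-mir-16-1 without TLR4-KO replicate 1. That of mmu-mir-15b ran from -8.74 without WT + EtOH replicate 3 to -2.47 without TLR4-KO replicate 3.

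**Figure D3:**
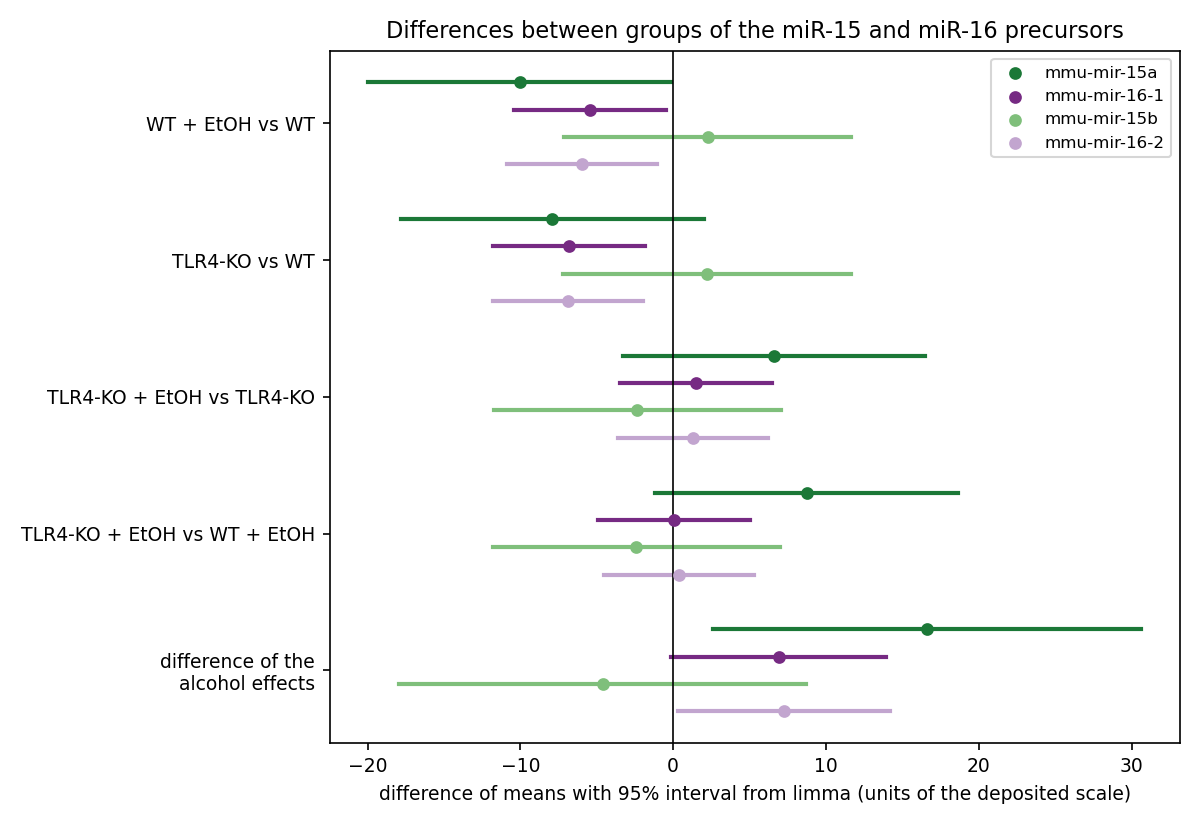
Differences of group means (first group minus second, units of the deposited scale) of the 4 precursors in the 4 comparisons, and the difference of the alcohol effects between genotypes, with 95% intervals from limma. In WT + EtOH vs WT the intervals of mmu-mir-15a (-19.9 to -0.153) and the miR-16 pair lie below 0 before adjustment, and in TLR4-KO vs WT those of the miR-16 pair do.

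Of the red blood cell markers, 1 of 4 was called in both comparisons with WT. Over all 589 precursors, 1.7% were called in WT + EtOH vs WT and 2.55% in TLR4-KO vs WT. mmu-mir-451a, an abundant miRNA of red blood cells, had values of 46.3 to 50.2 in the 3 WT libraries and 24.5 to 36.0 in the other 9. It fell by 14.6 in WT + EtOH vs WT (limma adjusted p = 0.0346) and by 17.6 in TLR4-KO vs WT (adjusted p = 0.00948). The miR-16 pair and mmu-mir-451a thus both had their WT libraries above all others, as had 11.1% of the 190 precursors above 0 everywhere. The other red blood cell precursors did not follow the same course. mmu-mir-486b had differences of 8.19 (adjusted p = 0.196) and 8.76 (adjusted p = 0.139) in those comparisons, and mmu-mir-486a of -0.383 and 0.486 (adjusted p = 1 in both). mmu-mir-144, which shares a transcript with mmu-mir-451a, had differences of 1.20 and -4.13 (adjusted p = 1 in both). The summed value of the 4 ran from 240.9 to 255.8 in WT and from 243.2 to 246.5 after ethanol. In TLR4-KO mice the sum was 231.4 to 243.9 on water and 219.3 to 240.6 on ethanol. The part of blood in the miR-16 values was not tested, and in pooled tissue fewer cells of a type and less RNA per cell cannot be told apart.

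**Figure D4:**
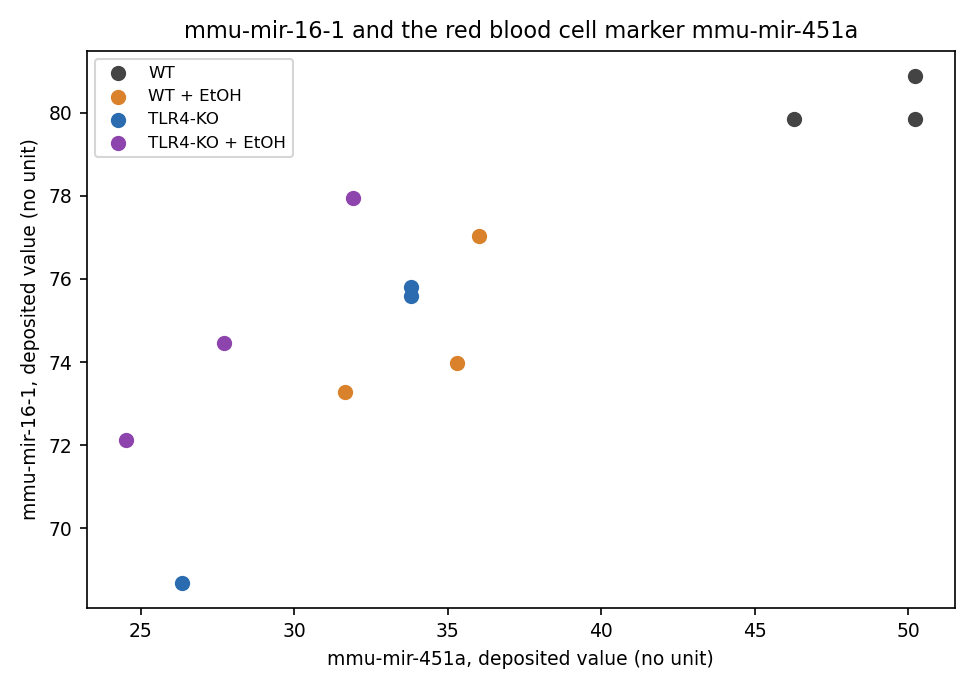
mmu-mir-16-1 (y axis) against the red blood cell marker mmu-mir-451a (x axis), both as deposited values without a unit, with 1 point per library coloured by group. Neither axis starts at 0, and the 3 WT libraries stand apart at 46.3 to 50.2 for mmu-mir-451a and 79.9 to 80.9 for mmu-mir-16-1.

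Among the leukocyte markers, 1 of 5 precursors was called in both comparisons, beside 1.7% and 2.55% of all 589 precursors. mmu-mir-150, a lymphocyte miRNA, rose by 7.41 in WT + EtOH vs WT (adjusted p = 0.0444) and by 9.28 in TLR4-KO vs WT (adjusted p = 0.00958), opposite in sign to the miR-16 values, while mmu-mir-223 of myeloid cells was at 0 in every library. mmu-mir-142a, found across blood cell lineages, had differences of -2.81 (adjusted p = 1) and -11.8 (adjusted p = 0.532, lower without overlap), the sign of the miR-16 values. mmu-mir-342 had 10.9 (adjusted p = 0.244) and 1.64 (adjusted p = 1), and mmu-mir-155 was above 0 in 2 TLR4-KO libraries only. The summed leukocyte value ran from 129.9 to 140.9 in WT and from 143.3 to 162.9 after ethanol, and in TLR4-KO mice from 131.3 to 151.9 on water and 127.2 to 142.7 on ethanol. No blood vessel (3), neuronal (13), oligodendrocyte (3) or choroid plexus (4) precursor was called in either comparison. The pattern of miR-16, with all WT libraries above the other 9, occurred in 11.1% of the 190 precursors above 0 everywhere. Some of the blood vessel and neuronal markers nevertheless had it. They were mmu-mir-143 of smooth muscle, at 83.3 to 85.2 in WT and at most 81.1 elsewhere, with differences of -6.45 (adjusted p = 0.0649) and -4.53 (adjusted p = 0.169), and the neuronal mmu-mir-218-1 and mmu-mir-218-2. The latter 2 had -9.38 and -8.87 in WT + EtOH vs WT (adjusted p = 0.201 and adjusted p = 0.194) and -6.36 and -6.39 in TLR4-KO vs WT (adjusted p = 0.462 and adjusted p = 0.379). Most of the 13 neuronal precursors had the other sign. In WT + EtOH vs WT 10 were higher and 3 lower, and in TLR4-KO vs WT 9 were higher and 4 lower. Their median differences were 3.90 and 2.62, beside 0.306 and 0.555 over the 190 precursors. mmu-mir-128-1 was higher without overlap in both, by 9.29 (limma adjusted p = 0.0563) and 8.24 (adjusted p = 0.0676). All 3 blood vessel precursors had an unadjusted p under 0.05 in limma in WT + EtOH vs WT. So did 12.6% of all precursors and 61 of the 190 above 0 everywhere. The blood vessel precursors differed in sign, mmu-mir-126a with -6.58 (adjusted p = 0.289) and mmu-mir-145a with 8.09 (adjusted p = 0.151). The part of these cell types in the miR-16 values was not tested.

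The number of precursors above 0 differed between the libraries and did not follow the miR-16 values in one direction. It was 260 to 270 in WT and 229 to 270 after ethanol, and in TLR4-KO mice 216 to 262 on water and 236 to 262 on ethanol. Within every group, replicate 1 had the most precursors above 0 and the lowest mmu-mir-16-1 value, which in WT was tied with replicate 3 (79.9). Between groups, however, the WT libraries had both many precursors and high miR-16 values. The part of this number of precursors in the differences was not tested.

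The neighbours of a cluster were compared for how they varied together, since they are cut from a common transcript. Over 12 libraries, mmu-mir-15a and mmu-mir-16-1 of the Dleu2 cluster had r = 0.372 (permutation p = 0.232, adjusted over 6 pairs p = 0.516) and rho = 0.494 (permutation p = 0.103, adjusted p = 0.256). Without the 2 libraries farthest from the median of mmu-mir-15a, r was 0.769, and with group means removed it was 0.00820. mmu-mir-15b and mmu-mir-16-2 of the Smc4 cluster had r = -0.214 (permutation p = 0.500, adjusted p = 0.750) and rho = -0.330 (permutation p = 0.289, adjusted p = 0.379). Here r was -0.00946 without the 2 libraries farthest from the median of mmu-mir-15b, and -0.133 with group means removed. Neither pair of values showed a joint variation that passed the test. The values of mmu-mir-16-1 and mmu-mir-16-2 may, however, each hold reads of both clusters, since these precursors share a mature strand. The comparison therefore cannot show whether the neighbours within a cluster vary together.

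mmu-mir-16-1 and mmu-mir-16-2, which share their mature 5p strand and were equal in 7 libraries, had r = 0.993 and rho = 0.993, given as a description only. mmu-mir-15a and mmu-mir-15b, whose mature strands differ, had r = -0.0561 (permutation p = 0.858, adjusted p = 0.858) and rho = -0.196 (permutation p = 0.540, adjusted p = 0.540). Without the 2 libraries farthest from the median of mmu-mir-15a, r was -0.0055. The remaining pairs, mmu-mir-15a with mmu-mir-16-2 and mmu-mir-16-1 with mmu-mir-15b, had r = 0.354 and r = -0.154 (permutation p = 0.258 and p = 0.627, adjusted p = 0.516 and p = 0.753). They had rho = 0.466 and rho = -0.313 (permutation p = 0.128 and p = 0.316, adjusted p = 0.256 and p = 0.379). Without the 2 libraries farthest from the median of mmu-mir-15a, the first had r = 0.760. Without the 2 farthest from the median of mmu-mir-16-1, the second had r = -0.598. This value and the -0.00946 of mmu-mir-15b with mmu-mir-16-2 leave out different libraries and cannot be compared.

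The table holds 3 further precursors with the same seed, and their mature 5p strands show where they depart from miR-15 and miR-16 (RefSeq, seed in capitals).
mmu-miR-195a-5p: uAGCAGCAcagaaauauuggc
mmu-miR-497a-5p: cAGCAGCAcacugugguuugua
mmu-miR-322-5p: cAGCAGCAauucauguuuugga
miR-195a-5p had the same base as miR-16-5p at 19 of 21 positions. The seed occurs in 10 of 1679 mature miRNA names of RefSeq (0.596%), and in 7 of the 478 precursors of the table that matched a mature sequence (1.46%). mmu-mir-195a and mmu-mir-497a are neighbours on chromosome 11, and mmu-mir-322 lies on chromosome X.

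mmu-mir-195a was at 43.3, 40.2 and 38.6 in WT and at 30.7, 29.5 and 36.8 after ethanol, and TLR4-KO mice had 31.2, 38.2 and 31.4 on water and 32.3, 37.7 and 42.1 on ethanol. As for miR-16, WT was above all libraries of WT + EtOH and TLR4-KO, with differences of -8.38 (limma adjusted p = 0.269) and -7.11 (adjusted p = 0.414), but it overlapped with TLR4-KO + EtOH. Its neighbour mmu-mir-497a had differences of the other sign, 4.94 (adjusted p = 1) and 5.94 (adjusted p = 0.773), with values from 40.9 to 58.8 over all libraries. mmu-mir-322 was low and variable, from 17.6 to 21.7 in WT and from 0 to 32.3 in the other libraries, with differences of -14.9 (adjusted p = 0.524) and -6.58 (adjusted p = 1). None of the 3 was called in any comparison, so of all 7 precursors with this seed none passed the threshold. Of the related miRNAs with a similar seed, mmu-mir-503, mmu-mir-103-2 and mmu-mir-107 were listed at 0 in all libraries. As the way reads were assigned to precursors is not known, a listed 0 does not show absence from the cortex.

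**Figure D5:**
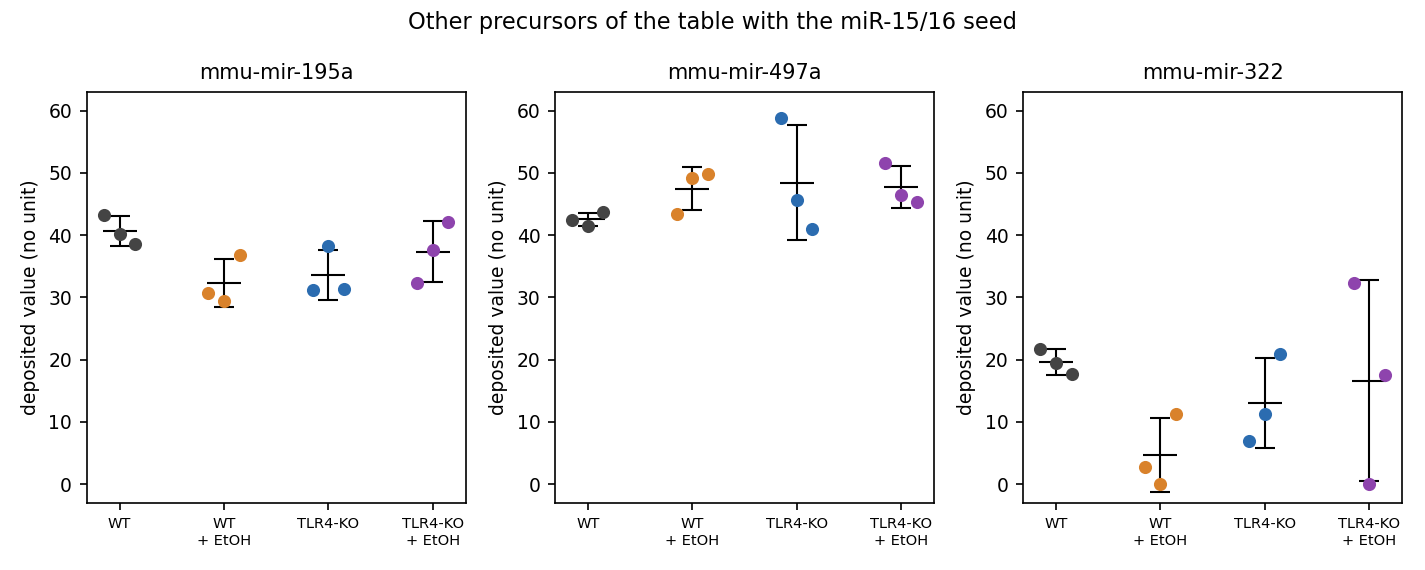
Deposited values (no unit) of the 3 other precursors with the miR-15/16 seed by group. Points are libraries, lines are means and bars SDs (n = 3), and mmu-mir-195a has its WT libraries (38.6 to 43.3) above those of WT + EtOH and TLR4-KO.

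The precursors whose values were most like each member over the 12 libraries were found among the 186 others above 0 in all libraries, as a description only, since all values of a library share its normalisation. Nearest to mmu-mir-15a were mmu-mir-22 (r = 0.916), mmu-mir-376a (r = 0.877) and mmu-mir-146a (r = 0.859), all of which came before its cluster neighbour mmu-mir-16-1, at place 47. mmu-mir-22 (31.9), mmu-mir-376a (34.8) and mmu-mir-146a (58.3) all had their highest value in TLR4-KO + EtOH replicate 1, as mmu-mir-15a did. How far their r depends on that 1 library was not tested. mmu-mir-136 (r = 0.951) and mmu-mir-26b (r = 0.932) were nearest to mmu-mir-16-1, followed by mmu-mir-30b (r = 0.929). For mmu-mir-16-2 these were mmu-mir-136 (r = 0.950), mmu-mir-26b (r = 0.932) and mmu-mir-192 (r = 0.930). mmu-mir-136 was at 64.6 to 66.8 in WT and at 51.5 to 62.0 in the other libraries, so it too had WT above all others. Nearest to mmu-mir-15b were the neuronal mmu-mir-124-1 (r = 0.757) and mmu-mir-124-2 (r = 0.741) and mmu-mir-378c (r = 0.700), and its cluster neighbour mmu-mir-16-2 came at place 150.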

How the data were processed

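Small RNA of the cortex was sequenced from libraries made with the TruSeq small RNA kit. According to the submitters' processing notes, reads were checked with FastQC 0.11.6, trimmed with cutadapt, and aligned with Bowtie2 2.2.5 and TopHat to GRCm38. The study's methods name TMM normalisation of the counts and a negative binomial model. The deposited values are scores per precursor that were normalised by the authors to a common set of levels, with no unit and no read depth, so counting error could not be computed and precision was judged from the spread between libraries.

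From these scores, limma 3.58.1 (R 4.3.3) was fitted to all 12 libraries with 1 mean per group and no filter, with Benjamini-Hochberg adjustment over 589 precursors and a threshold of 0.05. limma took the place of a count model because the values are not whole reads. The limma step was tested on simulated data with independent normal noise. Such data lack the repeated levels of the deposited values, so that test does not cover them. Permutation tests were two-sided (scipy 1.17.1). All precursors of the clusters are named, other precursors by seed, by marker list or by the 3 highest correlations. The members and lists were chosen with earlier results of these data known. The alternatives were quantile normalisation, centring on miR-181a and miR-181b, a filter on low values, a fit of 2 groups only, a replicate block, merged copies and leaving out each library.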

Additional observations from a re-analysis of the deposited data

How the results depend on the processing

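None of the 4 precursors was called in any comparison under any alternative run, and 339 of 351 alternative differences kept their sign. The lowest adjusted p was 0.0704 for mmu-mir-16-2 and 0.0735 for mmu-mir-16-1, both in TLR4-KO vs WT with the replicate block. The 12 that reversed belonged to the miR-16 pair in the 2 comparisons with TLR4-KO + EtOH. Centring on miR-181a and miR-181b gave -1.11 for mmu-mir-16-1 and -0.815 for mmu-mir-16-2 in TLR4-KO + EtOH vs WT + EtOH. With single libraries left out, the range there was -1.47 to 1.45 for mmu-mir-16-1 and -1.47 to 1.89 for mmu-mir-16-2, and in TLR4-KO + EtOH vs TLR4-KO it was -0.847 to 2.85 and -0.762 to 2.83. The cause was not tested.

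The number of all precursors called depended more on the setting. The filter on low values gave 21 in WT + EtOH vs WT, 31 in TLR4-KO vs WT and 13 for the difference of the alcohol effects, with fewer precursors tested (285). Centring gave 12 for the difference of the alcohol effects, and in TLR4-KO vs WT it changed the split from 9 higher and 6 lower to 10 and 11. A fit of the 2 groups only changed the split in WT + EtOH vs WT from 6 higher and 4 lower to 1 and 6. In TLR4-KO + EtOH vs TLR4-KO limma called 0 after quantile normalisation, after centring and in the 2 groups only (36, 50 and 25 at an unadjusted p under 0.05). In TLR4-KO + EtOH vs WT + EtOH it called 1 after quantile normalisation and 0 in the 2 groups only (25 unadjusted). With single libraries left out, the counts ran from 4 to 18 in WT + EtOH vs WT, 11 to 22 in TLR4-KO vs WT, 0 to 4 in TLR4-KO + EtOH vs TLR4-KO, 0 to 3 in TLR4-KO + EtOH vs WT + EtOH and 2 to 15 for the difference of the alcohol effects.

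The labels give same-numbered libraries no shared origin. The correlations of their deviations ran from -0.109 to 0.153 (medians 0.114, 0.0630 and 0.129 for numbers 1 to 3), not all above 0.1, and 6 of 12 libraries correlated best with their own number, so the numbers were not taken as pairs. Replicate 1 nevertheless had the most precursors above 0 in every group. It also had the lowest mmu-mir-16-1 value in every group, tied in WT with replicate 3. A shared origin of same-numbered libraries is therefore not excluded. With the replicate block the counts were 13, 24, 3, 2 and 3, in the order of the counts for left-out libraries, and the SE of mmu-mir-16-1 was 1.55 in place of 2.17.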
